A study of Homo sapiens with 15 samples.

Results

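The replication-dependent histone genes were compared between oral squamous carcinoma cells labelled as carrying a cytoglobin vector and cells labelled as carrying an empty vector. Members were chosen by name: each array probe annotated with a RefSeq accession of a gene whose current or older symbol belongs to the clustered H1, H2A, H2B, H3 or H4 families was taken. The rule found 83 probes for 72 genes, of 19483 genes named on the array. Of these 72, 66 belonged to the 5 classes: 6 to the linker histone H1, 15 to H2A, 18 to H2B, 13 to H3 and 14 to H4. The rule also took the linker variants H1-7, H1-8 and H1-10 outside the clusters, the antisense RNA H1-10-AS1 and the pseudogene H1-9P, which are given apart.

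PE/CA-PJ41 is an immortalised line from a human oral squamous cell carcinoma, grown in RPMI1640 medium with foetal bovine serum. The labels give NCE cells an empty vector, whereas the paper calls them untransfected in some places, so what they carry is not known here. CYGB+ cells had pCMV6-Neo with the human cytoglobin cDNA, with stable clones picked by cloning ring under G418. RNA was taken on 3 occasions per group after a day in supplemented medium, and each of the 3 biological replicates was run on 3 arrays (NCE, 9 arrays) or 2 arrays (CYGB+, 6 arrays). Array repeats were averaged, so that the main test set 3 replicates against 3. Alternative fits with slide as a block or with a random block used the 15 single arrays instead, with repeats of a replicate treated as correlated. Fits on 1 slide alone or without a replicate held fewer replicates. Per the methods the CYGB+ arrays hold 1 clone, LST421, so a difference between the groups cannot be told apart from a difference between clones. The labels give the green dye, Cy3, for all 15 arrays, whereas the methods give Cy5 for the control cells. The red channel was not used, its RNA is not known here, and groups are named below as they were labelled.

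Histone mRNAs of this kind are made in S phase, when new DNA has to be packed into nucleosomes. Most end in a stem-loop in place of a poly(A) tail; the stem-loop binding protein SLBP and the U7 small nuclear RNP direct the cleavage that forms this end, and the mRNAs are degraded when DNA synthesis stops. H2A, H2B, H3 and H4 form the nucleosome core, while H1 binds the linker DNA between cores. Each core histone is encoded by many near-identical gene copies. A probe for one copy may therefore bind RNA of others, and which copy a value belongs to is uncertain throughout. The labelling was primed from poly(A), so RNAs ending in the stem-loop could be copied less well than their polyadenylated forms, which was not tested.

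Some features of the arrays bear on all values. Slide 1 held 8 NCE arrays, and slide 2 held all 6 CYGB+ arrays with a single NCE array, replicate 1, repeat 3, so slide and group could be separated only through that array. The first repeat of CYGB+ replicate 1 had a mean correlation of 0.905 with the other arrays across probes, against 0.956 for the next lowest array. The median correlation was 0.982 between repeats of a replicate, 0.9798 between replicates of a group and 0.967 between groups. The paper describes PE/CA-PJ41 as not expressing cytoglobin, and reports high cytoglobin in LST421 by qPCR and in-cell ELISA. Here the only probe for CYGB, the transfected gene, was well above background on all 9 NCE and all 6 CYGB+ arrays. Its normalised log2 green signal was 12.87, 13.16 and 12.94 in NCE replicates 1 to 3 and 12.37, 13.45 and 12.9996 in CYGB+ replicates 1 to 3. The groups overlapped, with a difference of -0.05 (SE 0.27, adjusted p = 0.92) that became 0.08 under 75th percentile scaling, 0.05 in the deposited value table, 0.04 without NCE replicate 2 and 0.24 without CYGB+ replicate 1, so this probe does not separate the labelled groups; whether it lies in the cloned sequence is not known here.

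Epithelial markers supported the labelled cell type only as presence: all 8 squamous markers (KRT5, KRT14, KRT6A, KRT17, TP63, CDH1, DSG3 and SFN) and both simple epithelial keratins, KRT8 and KRT18, were well above background on all 15 arrays. None of these 10 passed the limma test in the main setting. At an unadjusted p under 0.05 limma gave 3 squamous markers and 0 simple ones, beside 29.2% of all probes tested. The methods' t-test gave 2 and 0, beside 25.4%. Some passed in other settings: KRT14 was higher with the replicate number as a block (0.69, adjusted p = 0.036) and in the deposited value table (0.86, adjusted p = 0.038), and KRT6A was lower under normexp correction (-0.51, adjusted p = 0.028). With a random block over 15 arrays 3 squamous markers passed, beside 2369 higher and 2356 lower of all 19791 probes tested. Without the 5 least correlated arrays 3 also passed, beside 2447 higher and 2305 lower of 19771 probes. Summed linear signal over replicates ran from 131375 to 175775 for the squamous list, of which SFN gave most, and from 126443 to 165810 for the simple list, of which KRT18 gave most. Of 6 fibroblast markers, COL3A1, PDGFRB and LUM were on no array above background and DCN on 1; COL1A2 fell by 2.54 (SE 0.21, adjusted p = 0.00123), and the summed linear signal of the list was 492.5, 403.9 and 395.5 in NCE and 165.1, 152.6 and 114.9 in CYGB+. COL1A2 had the highest mean of that list. The other tested fibroblast marker, COL1A1, was above background on 7 of 9 NCE and all 6 CYGB+ arrays and differed by 0.23 (SE 0.38, adjusted p = 0.73), with overlap. Among endothelial markers VWF was on no array above background, PECAM1 on 1 and CDH5 on 14. Of the leukocyte markers PTPRC and CD3E were each on 3 arrays and CD14 on all 15 (difference -0.50, adjusted p = 0.28). Summed linear signal ran from 55.4 to 88.1 for the endothelial list and from 287.6 to 579.2 for the leukocyte list, of which CD14 gave most. The part of these genes in the histone results was not tested.

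Most histone genes of these cells gave signal: 62 of the 72 were well above background on all 15 arrays, and 4 were so on none (H1-8, H1-9P, H2BC1 and H4C7). In CYGB+ cells, 1 of the 65 tested members was higher, H2AC19, and 1 was lower, H3C12, at an adjusted p under 0.05 (limma, adjusted over 19791 probes). This is 1.54% of the members in each direction, beside 6.05% higher and 5.62% lower across all probes tested; the shares were not tested against each other. The 3 replicates of CYGB+ lay wholly above those of NCE for 2 members, against 17.3% of all probes tested, and wholly below for 10, against 17.6%. At an unadjusted p under 0.05 limma gave 3 members, beside 29.2% of all probes tested (5777 of 19791). The methods' t-test gave 2 higher and 5 lower unadjusted, beside 2576 and 2458 of all probes (25.4% together), and 0 members after adjustment. With the replicate number as a block the counts were 2 higher and 2 lower, beside 1712 and 1715 of all 19791 probes tested. With slide as a block they were 0 and 0, beside 326 and 442. A change in the share of cells in S phase and a change in histone RNA per cell cannot be told apart in bulk RNA. By flow cytometry the paper reports a lower share of untreated LST421 cells than of control cells in G1.

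The 65 members had differences, CYGB+ minus NCE in log2 signal, from -0.76 to 0.86, with a median of -0.10 beside -0.01 over all probes tested. This median carried no stable direction, since it was 0.00092 under 75th percentile scaling, 0.06 in the deposited value table, 0.05 without the least correlated array and 0.10 without NCE replicate 1. By class, the median was -0.27 for H1, 0.26 for H2A, 0.12 for H2B, -0.17 for H3 and -0.22 for H4. Under all scalings these signs held, but H2A became -0.09 with slide as a block and -0.28 within slide 2, H2B became -0.10 within slide 2, and H3 became 0.04 without the least correlated array. In these slide settings the groups meet on slide 2 through 1 NCE array, of replicate 1, so slide and replicate cannot be told apart in them. Its H2A median was 12.66, beside 12.03 and 12.74 on the 2 arrays of CYGB+ replicate 1 and 11.58 to 12.10 on those of CYGB+ replicates 2 and 3. Leaving out CYGB+ replicate 3 turned H1 to 0.02 and all members to 0.09. H4 had a median below 0 under all 20 alternatives, from -0.63 to -0.05, with 0 of 13 genes past the threshold in the main test. No class was tested as a set.

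**Figure D1:**
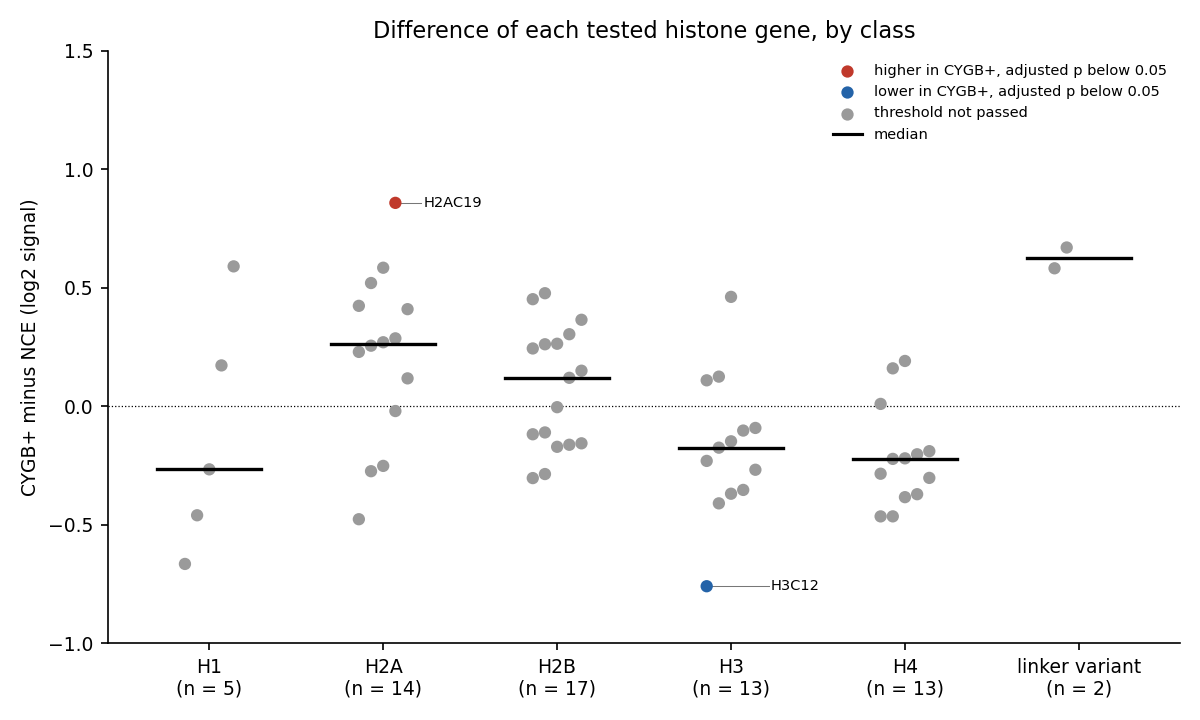
Each point is the difference (CYGB+ minus NCE, log2 signal, vertical axis) of 1 tested gene, grouped by histone class with the number of genes, and bars mark class medians. H2AC19 at 0.86 and H3C12 at -0.76 passed the threshold; the H2A median of 0.26 became -0.28 within slide 2, the H2B median of 0.12 became -0.10 there, the H3 median of -0.17 became 0.04 without the least correlated array, and the H1 median of -0.27 became 0.02 without CYGB+ replicate 3.

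**Figure D2:**
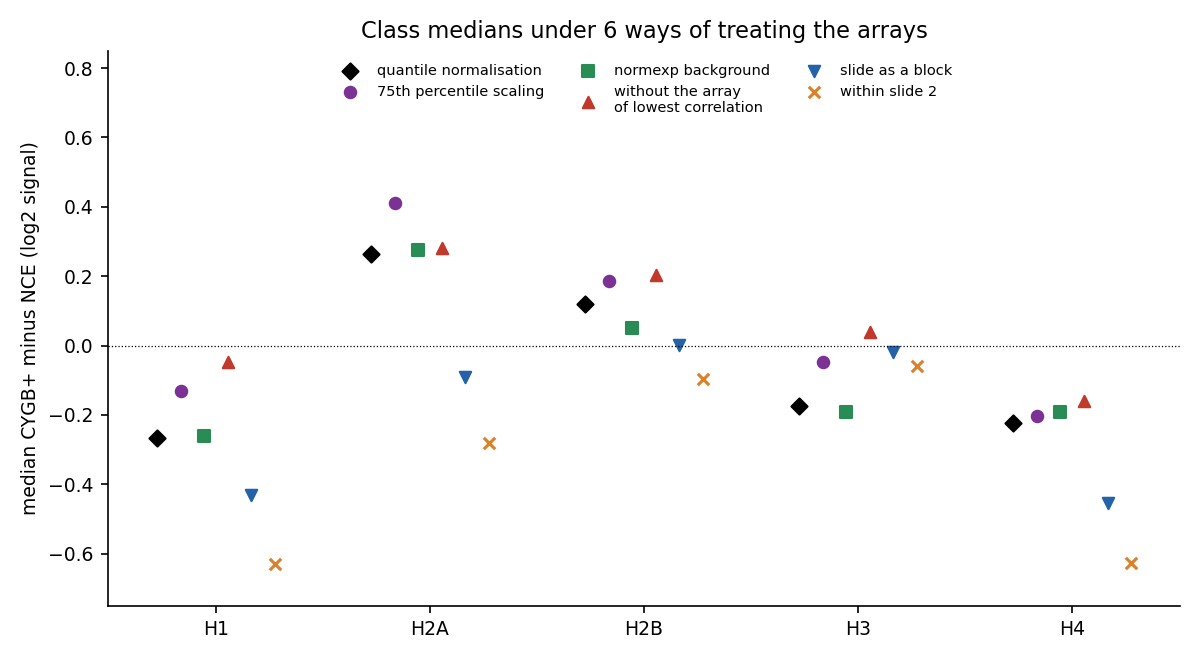
Median difference of each class (CYGB+ minus NCE, log2 signal, vertical axis) under quantile normalisation, 75th percentile scaling, normexp background correction, removal of the least correlated array, slide as a block and within slide 2. H2A lies at 0.26 and 0.41 under the 2 scalings and at -0.09 and -0.28 in the slide settings, H2B at 0.12 and at -0.10 within slide 2, and H3 at -0.17 and at 0.04 without the least correlated array, while H1 and H4 lie below 0 in the 6 settings shown.

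Linker histones of the H1 class bind at the nucleosome's entry and exit and compact the chromatin fibre. Of the 6 genes, 5 were tested and none passed in limma, with 1 at an unadjusted p under 0.05 in limma and 1 in the methods' t-test. H1-6, the testis form, was above background on 1 NCE array and on no CYGB+ array. H1-2 and H1-4 are named by signal, as are 2 genes of each class and list that did not pass. H1-2 measured 13.45, 12.57 and 12.82 in NCE replicates 1 to 3 and 13.47, 13.21 and 12.67 in CYGB+ replicates 1 to 3. These ranges overlapped, and the difference of 0.17 (SE 0.29, adjusted p = 0.73) became -0.15 with slide as a block, -0.02 without NCE replicate 2 and -0.0043 without CYGB+ replicate 1. H1-4 gave 13.23, 12.48 and 12.48 against 12.63, 12.88 and 11.89, a difference of -0.27 (SE 0.31, adjusted p = 0.61) with overlapping groups that became 0.02 without CYGB+ replicate 3.

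H1-5, named here after its values were seen, was the H1 gene with the groups apart. It measured 10.80, 10.30 and 10.45 in NCE and 10.08, 9.92 and 9.55 in CYGB+. All CYGB+ values lay below all NCE values, and the difference of -0.67 (SE 0.20, adjusted p = 0.075) missed the threshold; it passed with the replicate number as a block (adjusted p = 0.041), while slide as a block gave -0.47 (adjusted p = 0.85) and within slide 2 -0.63 (adjusted p = 0.62). The remaining tested pair, H1-1 and H1-3, lay at 0.59 and -0.46 with overlapping groups, so members of the class stood on both sides of 0. With slide as a block H1-1 was 0.04, and within slide 2 it was -0.33 and all 5 tested H1 genes lay below 0.

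H2A held the 1 histone gene that was higher. Of its 14 tested genes, 1 lay at an unadjusted p under 0.05 in limma and 1 in the methods' t-test. This stands beside 29.2% and 25.4% of all probes tested. H2AC19 encodes a core H2A and lies beside its duplicate H2AC18 on chromosome 1; the promoters of both, 300 bases each in RefSeq, share an unbroken run of 299 bases. Its promoter is shown because this gene passed the test and because the shared run illustrates how little separates the copies. Capitals mark each match, on either strand, to the letters TATAAA (the TATA box), CCAAT (the CCAAT box, ATTGG on the other strand) or ATTTGCAT (the octamer bound by POU2F1, ATGCAAAT on the other strand); the run is from GRCh38.p14, chr1:149850811-149851110, plus strand, 250 bases before to 50 after the start. It holds 1 TATA box match, 2 CCAAT box matches and 0 octamer matches, and no match says only that these letters are not in this window.
H2AC19: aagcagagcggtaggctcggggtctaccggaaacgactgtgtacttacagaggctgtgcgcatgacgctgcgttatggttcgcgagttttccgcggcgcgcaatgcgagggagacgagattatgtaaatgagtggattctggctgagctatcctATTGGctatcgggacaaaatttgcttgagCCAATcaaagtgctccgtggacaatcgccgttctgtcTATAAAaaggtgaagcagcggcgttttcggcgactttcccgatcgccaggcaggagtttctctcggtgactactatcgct

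H2AC19 measured 9.11, 8.64 and 8.75 in NCE replicates 1 to 3 and 9.84, 9.78 and 9.46 in CYGB+ replicates 1 to 3. All 3 CYGB+ values lay above all 3 NCE values, and on single arrays the highest NCE value, 9.28, lay just below the lowest CYGB+ value, 9.35. The rise was 0.86 (SE 0.19, 95% interval 0.42 to 1.29, adjusted p = 0.029), or 1.81-fold. With slide as a block it was 0.83 (adjusted p = 0.20) and within slide 2, where NCE replicate 1 was the lone control, 0.70 (adjusted p = 0.53). The call was lost without NCE replicate 2 (0.76, adjusted p = 0.12), NCE replicate 3 (0.82, adjusted p = 0.11), CYGB+ replicate 1 (0.79, adjusted p = 0.053) or CYGB+ replicate 2 (0.82, adjusted p = 0.069). The difference stayed above 0 in all 20 alternatives, from 0.69 to 1.00, with adjusted p from 0.00198 to 0.53.

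The other 13 tested H2A genes did not pass, with differences from -0.48 for H2AC4 to 0.58 for H2AC1, a testis form that was well above background on only 4 of 9 NCE arrays and became -0.02 under normexp correction. H2AC4 became -0.0016 with slide as a block and 0.06 within slide 2. H2AC14 gave 14.85, 13.73 and 13.89 in NCE and 14.89, 14.55 and 13.85 in CYGB+, and H2AC15 gave 14.76, 13.59 and 13.77 against 14.70, 14.20 and 13.58. In both genes replicate 1 was the highest of each group and the groups overlapped. Their differences of 0.27 (SE 0.36, adjusted p = 0.66) and 0.12 (SE 0.37, adjusted p = 0.87) became -0.28 and -0.41 with slide as a block, and H2AC15 also lay at -0.11 without NCE replicate 2, -0.02 without NCE replicate 3 and -0.15 without CYGB+ replicate 1. H2AC25 was well above background on 0 of 9 NCE arrays and on 4 of 6 CYGB+ arrays; no group measured it on every array, so it was not tested and no fold is given.

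No H2B gene passed the threshold. Of 18 genes, 17 were tested, with 0 at an unadjusted p under 0.05 in limma and 1 in the methods' t-test; differences ran from -0.30 for H2BC10 to 0.48 for H2BC26, 9 above 0 and 8 below. H2BC1, a testis form, was on no array above background. H2BC13 gave 12.89, 12.33 and 12.51 in NCE and 12.83, 12.86 and 12.49 in CYGB+, a difference of 0.15 (SE 0.20, adjusted p = 0.65). H2BC9 gave 12.50, 11.96 and 12.16 against 12.67, 12.58 and 12.10, a difference of 0.24 (SE 0.22, adjusted p = 0.49). Both overlapped, and within slide 2 these differences were -0.16 and -0.11. H2BC10, named after its values were seen, was the H2B gene whose CYGB+ values all lay below the NCE values (11.53, 11.30 and 11.57 against 11.03, 11.22 and 11.25). Its difference became -0.08 without the least correlated array, -0.03 with slide as a block and -0.09 within slide 2.

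H2A and H2B genes often lie back to back and share the DNA between their starts. In RefSeq, 10 such pairs among the members had starts 194 to 246 bases apart, and in 8 of them both genes were tested. In 5 of these 8 the H2A and H2B differences had opposite signs, and in 3 the same sign. The count of opposite signs was 6 of 8 under 75th percentile scaling, under normexp correction and with 5 of the 6 replicates left out in turn, 5 of 6 in the deposited value table, 4 of 8 with slide as a block or without the least correlated array, 3 of 8 without the 5 least correlated arrays and 1 of 8 within slide 2. The pair H2AC7 and H2BC7 is shown because its differences lay furthest apart among the 8 pairs with both genes tested, and it was named after its values were seen. H2AC7 measured 12.81, 12.03 and 12.21 in NCE and 13.05, 12.88 and 12.39 in CYGB+, a difference of 0.42 (SE 0.26, adjusted p = 0.32) that became -0.05 within slide 2. H2BC7 measured 9.78, 8.99 and 9.62 against 10.12, 8.72 and 8.69, a difference of -0.29 (SE 0.40, adjusted p = 0.68). This became -0.47 without the least correlated array, -0.65 with slide as a block and -0.72 within slide 2. The groups overlapped in both genes, and the difference between the genes was not tested.

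The promoter windows of the pair, from GRCh38.p14, overlap by 278 bases on opposite strands, so the same bases are read in both directions. H2AC7 lies at chr6:26199244-26199543 on the minus strand and H2BC7 at chr6:26199266-26199565 on the plus strand, capitals marking the same letters as above. Each window holds 3 CCAAT box matches, 1 octamer match and 0 TATA box matches.
H2AC7: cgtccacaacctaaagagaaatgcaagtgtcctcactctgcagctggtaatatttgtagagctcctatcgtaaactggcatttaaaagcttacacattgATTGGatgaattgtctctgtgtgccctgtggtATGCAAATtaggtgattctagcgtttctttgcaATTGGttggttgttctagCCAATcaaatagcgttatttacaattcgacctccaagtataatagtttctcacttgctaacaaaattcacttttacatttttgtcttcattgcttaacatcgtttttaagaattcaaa
H2BC7: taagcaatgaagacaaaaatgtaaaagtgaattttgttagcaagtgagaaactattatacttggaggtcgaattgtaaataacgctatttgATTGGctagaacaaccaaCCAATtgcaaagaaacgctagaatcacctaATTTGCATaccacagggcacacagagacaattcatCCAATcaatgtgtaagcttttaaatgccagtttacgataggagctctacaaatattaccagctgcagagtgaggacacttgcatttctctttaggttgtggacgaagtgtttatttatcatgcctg

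Promoter windows of this kind were found for 61 of the 66 genes, as 65 windows, and the letters were counted in them as a description. The octamer letters were in 15 of 20 H2B windows, 10 of 14 H2A windows and 1 of 13 H3 windows, but in 0 of 6 H1 and 0 of 12 H4 windows, beside 1.77% of all 35116 windows. The CCAAT letters were in all H1, H2A, H2B and H3 windows and in 3 of 12 H4 windows, beside 34.6% of all. The TATA letters were in 43 of the 65 windows, beside 11.5% of all. A match in such a window is not shown to be a bound site.

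H3 was the class with the 1 histone gene that was lower. H3C12 measured 10.37, 10.55 and 10.16 in NCE replicates 1 to 3 and 9.52, 9.43 and 9.85 in CYGB+ replicates 1 to 3. The replicate values did not overlap, but the single arrays did: NCE ran from 9.14 to 10.71 and CYGB+ from 8.58 to 10.45, and these CYGB+ extremes were the 2 repeats of replicate 1. The fall was -0.76 (SE 0.18, 95% interval -1.18 to -0.34, adjusted p = 0.037), or 1.69-fold lower. Without the least correlated array, the repeat at 8.58, it was -0.45 (adjusted p = 0.25), with slide as a block -0.15 (adjusted p = 0.98) and within slide 2 -0.23 (adjusted p = 0.90). The call was also lost without NCE replicate 1 (adjusted p = 0.098), NCE replicate 2 (0.15), NCE replicate 3 (0.076), CYGB+ replicate 1 (0.065) or CYGB+ replicate 2 (0.085). It held in 6 of 20 alternatives, with adjusted p from 0.034 to 0.98, and the sign was negative in all 20.

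Limma gave 1 of the 13 H3 genes at an unadjusted p under 0.05 and the methods' t-test 4, beside 29.2% and 25.4% of all probes tested. Among these 13, 6 had all CYGB+ values below all NCE values and 1 had them above, beside 17.6% and 17.3% of all probes tested. Only H3C12 passed. The other 5 below were H3C2, H3C6, H3C7, H3C8 and H3C10, named after their values were seen, with differences from -0.37 to -0.15 and adjusted p from 0.18 to 0.52. Without the least correlated array these 5 ran from -0.13 to 0.04, and with slide as a block H3C2 was 0.14 and H3C8 0.17. The gene above was H3-4, the testis H3 form, named by the signal rule. It gave 15.17, 15.18 and 15.21 in NCE and 15.29, 15.33 and 15.27 in CYGB+, a difference of 0.11 (SE 0.13, adjusted p = 0.63). This became 0.31 under 75th percentile scaling (adjusted p = 0.26) and 0.25 in the deposited value table (adjusted p = 0.39). H3C13 gave 14.94, 14.24 and 14.23 against 15.0025, 14.63 and 14.15 and overlapped, a difference of 0.12 (SE 0.28, adjusted p = 0.80) that became -0.26 with slide as a block and -0.08 without CYGB+ replicate 1.

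H4, the most conserved core histone, had 13 of 14 genes tested and none past the threshold in limma, with 0 at an unadjusted p under 0.05 in limma and 0 in the methods' t-test. Differences ran from -0.47 for H4C2 to 0.19 for H4C13, 10 of 13 below 0, and H4C7 was on no array above background. H4C3 gave 16.57, 15.67 and 16.10 in NCE and 16.67, 15.85 and 16.30 in CYGB+, a difference of 0.16 (SE 0.29, adjusted p = 0.75). H4C13 gave 14.96, 13.93 and 14.35 against 14.81, 14.33 and 14.67, a difference of 0.19 (SE 0.27, adjusted p = 0.68). Both overlapped between the groups, and with slide as a block both turned negative (-0.26 and -0.24), as they did without NCE replicate 2 (-0.06 and -0.05) and H4C3 without CYGB+ replicate 1 (-0.04). The mean of the 2 probes of H4C13 gave -0.15.

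**Figure D3:**
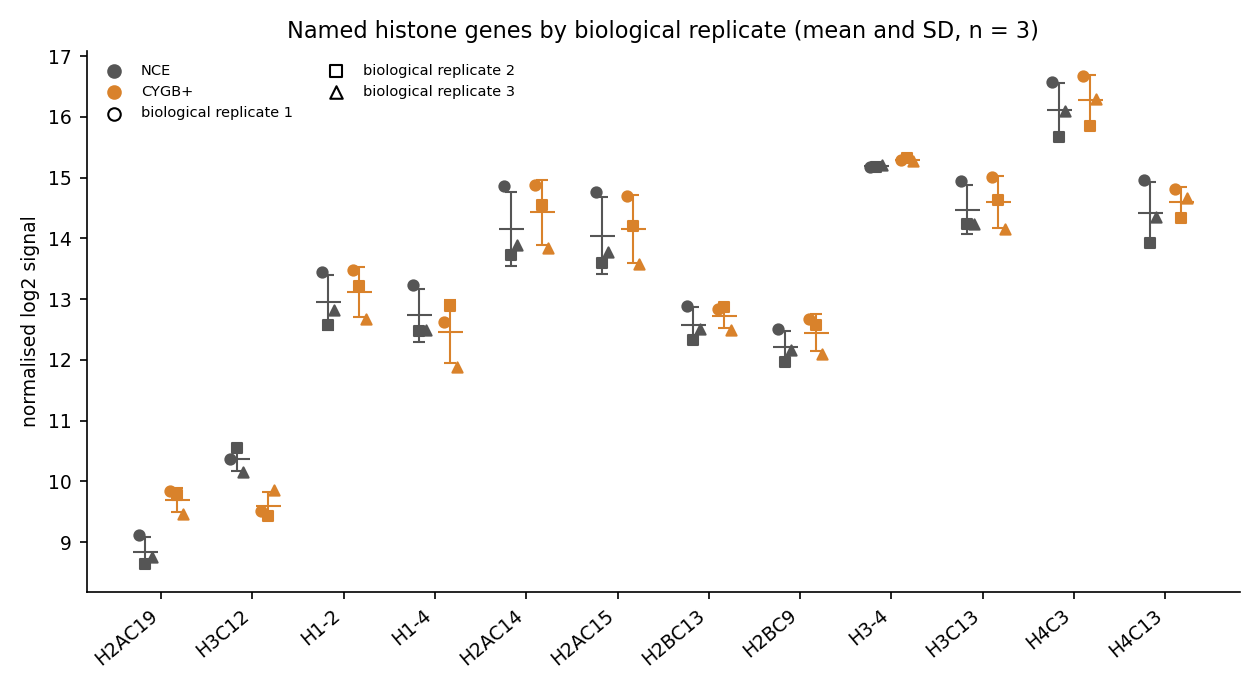
Normalised log2 signal (vertical axis) of 12 histone genes in the 3 biological replicates of NCE and CYGB+, with mean and SD; levels are not compared between genes. The groups are apart for H2AC19, H3C12 and H3-4 and overlap for the other 9, and in most of these replicate 1 (circles) is the highest of its group.

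Several genes of the family have more than 1 probe, and these did not always point the same way. Of 10 such genes 8 had more than 1 probe tested, and in 6 of them the probes had differences of opposite sign. H4C1 was the widest, with -0.37 for its brighter probe and 0.68 for the other, which was well above background on 7 of 9 NCE arrays, and H3C10 ran from -0.37 to 0.43. Both genes were picked out after their values were seen.

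The position of a gene in the histone clusters was also compared. The largest cluster on chromosome 6 held 34 of the 66 genes, with a median of -0.17 over 31 tested. The distal chromosome 6 cluster held 16 genes, H3C12 among them, with a median of -0.04. The main chromosome 1 cluster held 8, H2AC19 among them, with a median of 0.25, and the small middle cluster of chromosome 6 held 4, with a median of 0.13. These medians mix classes and were not tested. With slide as a block both positive medians were lost. In the main chromosome 1 cluster H2AC21 (-0.0087), H2AC20 (-0.06), H2BC21 (-0.26), H3C13 (-0.26), H3C15 (-0.45) and H4C15 (-0.67) lay below 0. H2AC19 (0.83) and H2BC18 (0.18) lay above. In the middle cluster H2BC11 (-0.06), H4C9 (-0.37) and H2AC12 (-0.48) lay below 0 and H2BC12 (0.18) above.

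Variation between replicates had a higher median in the 65 tested members than in all probes tested, but a lower one in H3. The difference was not tested. The median SD between biological replicates of a group was 0.34 for the 65 tested members and 0.24 for all probes tested, and between array repeats 0.25 and 0.26. The replicate SD is of averages over 2 or 3 arrays and the repeat SD of single arrays, so these 2 SDs are not like measures. Replicate 1 was the highest of its group in both NCE and CYGB+ for 38 of 65 members (58.5%), against 15.2% of all probes tested. For H2A the medians of replicates 1 to 3 were 12.54, 11.36 and 11.63 in NCE and 12.55, 12.07 and 11.81 in CYGB+, replicate 1 being highest in both. For H4 they were 12.65, 11.57 and 11.73 in NCE and 11.90, 11.91 and 11.54 in CYGB+, and replicate 1 was highest in both groups for 8 of 13 H4 genes. In H3, replicate 1 was highest in both groups for 3 of 13 genes. The median SD of H3 was 0.17 between replicate averages and 0.39 between single array repeats.

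**Figure D4:**
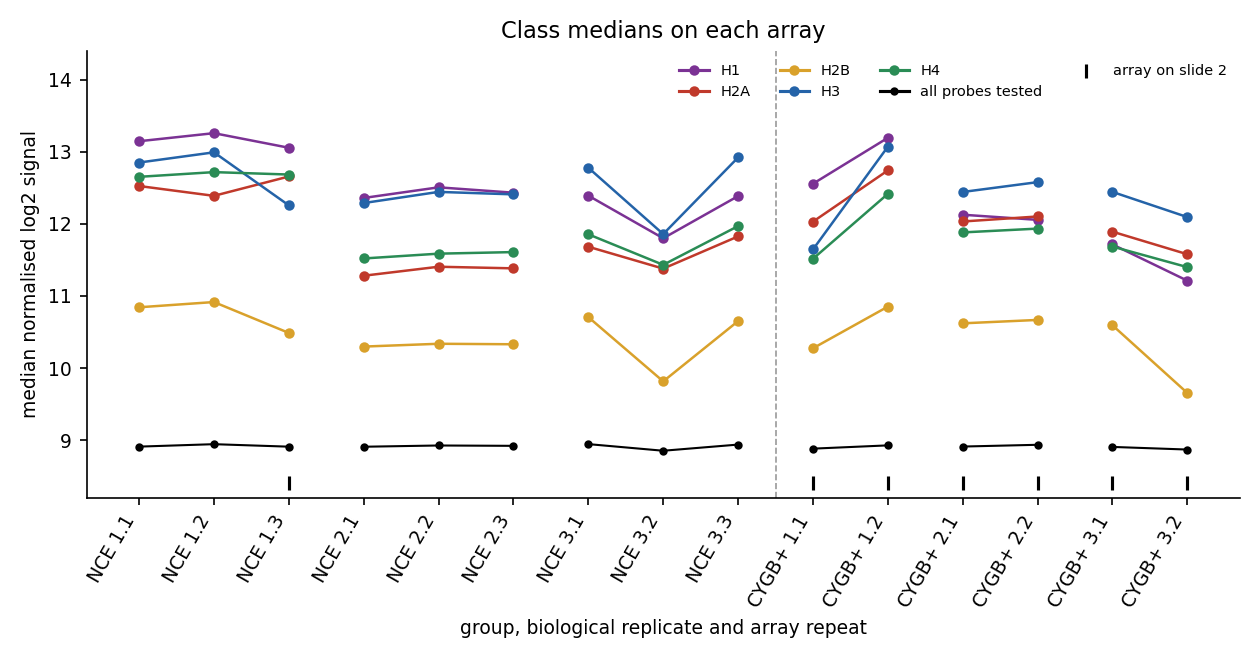
Median normalised log2 signal of each histone class and of all probes tested (vertical axis) on each of the 15 arrays, ordered by group, biological replicate and repeat, with ticks under the 7 arrays of slide 2. The arrays of NCE replicate 1 lie between 12.65 and 12.72 for H4 and those of NCE replicates 2 and 3 between 11.43 and 11.97, while the 2 repeats of CYGB+ replicate 1 lie at 11.64 and 13.07 for H3; all probes stay between 8.85 and 8.94.

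Linker variants outside the clusters are expressed independently of S phase or in germ cells. H1-10 and H1-7 were tested and did not pass in limma in the main setting, with 0 at an unadjusted p under 0.05 and 0 in the methods' t-test. H1-10 gave 9.58, 9.04 and 8.65 in NCE and 10.14, 9.69 and 9.18 in CYGB+, a difference of 0.58 (SE 0.31, adjusted p = 0.25). With the replicate number as a block it passed (adjusted p = 0.044), with slide as a block it was 0.04 and within slide 2 -0.13. H1-7, a testis form, gave 5.89, 5.57 and 5.42 against 6.98, 6.17 and 5.74, a difference of 0.67 (SE 0.31, adjusted p = 0.20) that passed without the 5 least correlated arrays (0.66, adjusted p = 0.023) and became 0.21 under normexp correction and 0.33 without CYGB+ replicate 1. Both genes overlapped between the groups. H1-7 was well above background on 8 of 9 NCE arrays and all 6 CYGB+ arrays, so it entered the main test through CYGB+ alone. H1-8 and H1-9P were on no array above background, and H1-10-AS1 was on 3 NCE and 4 CYGB+ arrays and was not tested.

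Some clustered genes are known to make polyadenylated transcripts too. Of 8 such genes on the array, all were well above background on all 15 arrays and none passed in limma, with 0 at an unadjusted p under 0.05 and 0 in the methods' t-test. Their median was -0.01, which became 0.05 under 75th percentile scaling and -0.21 with slide as a block, and their differences ran from -0.38 to 0.30. H1-2 is given above. H4C8 measured 12.65, 12.03 and 12.25 in NCE and 11.90, 11.91 and 11.98 in CYGB+, with all CYGB+ values lower and a difference of -0.38 (SE 0.19, adjusted p = 0.22). It became -0.76 with slide as a block, -0.88 within slide 2, and -0.21 without NCE replicate 1 or without the least correlated array.

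Replication-independent variants replace the canonical histones through the cell cycle. Of 10 listed, 9 had a probe (H3F3C had none), 8 were tested and 1 passed as higher (12.5%, beside 6.05% of all probes tested), with a median of -0.04. At an unadjusted p under 0.05 limma gave 2 of the 8 and the methods' t-test 1, beside 29.2% and 25.4% of all probes tested. MACROH2A1, which encodes an H2A variant with a large globular domain, gave 14.65, 14.45 and 14.49 in NCE and 15.30, 15.33 and 15.04 in CYGB+. All CYGB+ values lay above all NCE values, a rise of 0.69 (SE 0.16, adjusted p = 0.030), with slide as a block 0.70 (adjusted p = 0.046) and within slide 2 0.64 (adjusted p = 0.56). Leaving out any NCE replicate or CYGB+ replicate 2 ended the call, and adjusted p ran from 0.000137 to 0.56 over the alternatives. H3-3A gave 15.55, 15.81 and 15.71 against 15.19, 15.48 and 15.54, with CYGB+ just below NCE and a difference of -0.29 (SE 0.16, adjusted p = 0.29) that became 0.10 with slide as a block. H3-3B differed by 0.04 (SE 0.19, adjusted p = 0.92), with overlap, and MACROH2A2 was above background on 0 of 9 NCE and 2 of 6 CYGB+ arrays and was not tested.

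Genes that transcribe and process histone mRNA were examined as a list of 27, all tested, of which 0 were higher and 2 lower (7.41%, beside 5.62% lower and 6.05% higher of all probes tested), with a median of -0.04. At an unadjusted p under 0.05 limma gave 6 and the methods' t-test 5, beside 29.2% and 25.4% of all probes tested. SLBP gave 12.53, 12.68 and 12.66 in NCE and 12.71, 12.62 and 12.65 in CYGB+, a difference of 0.03 (SE 0.14, adjusted p = 0.89). NPAT, the cyclin E/CDK2 substrate that activates histone transcription, gave 4.95, 5.58 and 5.91 against 5.06, 4.97 and 5.72, a difference of -0.23 (SE 0.30, adjusted p = 0.64). Neither gene separated the groups. NPAT became -0.78 with slide as a block (adjusted p = 0.51), -0.50 without NCE replicate 1 and -0.02 without NCE replicate 3, and SLBP 0.25 within slide 2. NPAT was not well above background on all 15 arrays and entered the main test through 1 group alone, so its difference is uncertain. ERI1, the exonuclease that trims and degrades the stem-loop end, gave 9.90, 10.18 and 9.90 in NCE and 8.88, 9.35 and 9.37 in CYGB+, and fell by 0.79 (SE 0.19, adjusted p = 0.036). POU2F1, the octamer-binding factor, gave 9.93, 9.91 and 9.85 against 9.08, 9.25 and 9.51, and fell by 0.62 (SE 0.16, adjusted p = 0.048).

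Both falls of that list held no call with slide as a block, where ERI1 was -0.59 (adjusted p = 0.40) and POU2F1 -0.74 (adjusted p = 0.071), or within slide 2 (-0.57 and -0.74, adjusted p 0.67 and 0.50). ERI1 lost its call without any NCE replicate or without CYGB+ replicate 2 or 3, and POU2F1 without any 1 of the 6 replicates or under 75th percentile scaling (-0.61, adjusted p = 0.065). Under normexp correction ERI1 also lost it (-0.54, adjusted p = 0.052), as did POU2F1 with outliers kept (adjusted p = 0.057). Neither passed in the deposited value table (adjusted p = 0.073 and 0.076). The Sm proteins SNRPF and SNRPG, which are part of the U7 and the spliceosomal RNPs, did not pass, at -0.29 (SE 0.15, adjusted p = 0.26) and -0.17 (SE 0.14, adjusted p = 0.47). Of the 27 genes of that list, 2 had all CYGB+ values above all NCE values and 6 below, beside 17.3% and 17.6% of all probes tested. Named after their values were seen, the 2 above were SYMPK (0.47, SE 0.16, adjusted p = 0.090) and MIF4GD (0.28, SE 0.14, adjusted p = 0.23). SYMPK passed with a random block over 15 arrays and without the 5 or 1 least correlated arrays. CASP8AP2, named after its values were seen, had all CYGB+ values below all NCE values (-0.72, SE 0.24, adjusted p = 0.091). It passed with the replicate number as a block (adjusted p = 0.049), with a random block over 15 arrays and without NCE replicate 1 (-0.97, adjusted p = 0.040). With the replicate number as a block the list held 0 higher and 3 lower genes, beside 1712 and 1715 of all 19791 probes tested.

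Histone chaperones carry histones to the nucleus and onto DNA. Of 21 listed, 20 had a probe (UBN1 had none), and 0 were higher and 3 lower (15%, beside 5.62% lower and 6.05% higher of all probes tested), with a median of -0.07. At an unadjusted p under 0.05 limma gave 8 of 20 and the methods' t-test 7, beside 29.2% and 25.4% of all probes tested. SUPT16H, a subunit of the FACT complex, gave 8.29, 8.88 and 8.65 in NCE and 7.47, 7.74 and 7.16 in CYGB+, and fell by 1.15 (SE 0.22, adjusted p = 0.018). Its partner in FACT, SSRP1, gave 14.63, 14.63 and 14.37 against 14.24, 14.76 and 14.63, with the groups overlapping and no test of the difference between the partners. IPO4, an importin that brings H3 and H4 into the nucleus, gave 10.83, 10.73 and 10.35 against 9.53, 10.02 and 9.70, and fell by 0.88 (SE 0.20, adjusted p = 0.031). CHAF1B, a subunit of the chromatin assembly factor CAF-1, gave 11.26, 11.55 and 11.51 against 10.75, 10.59 and 10.67, and fell by 0.77 (SE 0.15, adjusted p = 0.0205).

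In all 3 chaperone genes every CYGB+ value lay below every NCE value. With slide as a block the differences were -0.86 for SUPT16H (adjusted p = 0.14), -0.77 for IPO4 (adjusted p = 0.30) and -0.77 for CHAF1B (adjusted p = 0.051), and within slide 2 -0.74, -0.88 and -0.68 with adjusted p from 0.41 to 0.54. SUPT16H and CHAF1B lost the call without NCE replicate 2 or 3, CHAF1B also without CYGB+ replicate 2 or 3, and IPO4 without any NCE replicate or CYGB+ replicate 1 or 3. NASP, an H1 and H3-H4 chaperone, differed by -0.17 (SE 0.19, adjusted p = 0.59), which became -0.74 with slide as a block (adjusted p = 0.59), -0.66 within slide 2 (adjusted p = 0.62) and -0.44 without the 5 least correlated arrays, where it passed (adjusted p = 0.025).

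Of the 20 chaperones tested, 2 had all CYGB+ values above all NCE values and 6 below, beside 17.3% and 17.6% of all probes tested. Of the 17 that did not pass, 5 had the groups apart, and these are named after their values were seen. ASF1A (-0.75, SE 0.22, adjusted p = 0.070), NAP1L4 (-0.49, SE 0.15, adjusted p = 0.069) and ANP32E (-0.56, SE 0.22, adjusted p = 0.15) had all CYGB+ values below all NCE values. ASF1A was well above background on all 9 NCE arrays but on only 4 of 6 CYGB+ arrays. It entered the main test through NCE alone, so its difference and calls are uncertain. ASF1A passed with the replicate number as a block (adjusted p = 0.029) and without the least correlated array (-0.72, adjusted p = 0.041). NAP1L4 passed under normexp correction (-0.39, adjusted p = 0.0499) and without the least correlated array (-0.58, adjusted p = 0.016). NAP1L1 and ASF1B had all CYGB+ values above all NCE values, with differences of 0.62 (SE 0.17, adjusted p = 0.051) and 0.70 (SE 0.20, adjusted p = 0.064). NAP1L1 passed with slide as a block (0.89, adjusted p = 0.041), under 75th percentile scaling (0.74, adjusted p = 0.030) and with the replicate number as a block (adjusted p = 0.049), and was 0.87 within slide 2 (adjusted p = 0.41). ASF1B passed under normexp correction (0.69, adjusted p = 0.043) and in the deposited value table (0.86, adjusted p = 0.027), and was 0.38 with slide as a block (adjusted p = 0.54). The chaperone list held 1 higher gene and 0 lower with slide as a block, beside 326 and 442 of all 19791 probes tested. With the replicate number as a block it held 1 higher and 4 lower, beside 1712 and 1715.

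Genes of the G1/S transition and of replication share the phase in which histones are made. All 27 listed were above background on all 15 arrays, and 0 were higher and 5 lower (18.5%, beside 5.62% lower and 6.05% higher of all probes tested), with a median of -0.03 beside -0.01 for all probes tested. At an unadjusted p under 0.05 limma gave 9 and the methods' t-test 10, beside 29.2% and 25.4% of all probes tested. GINS1, of the GINS part of the replicative helicase, gave 12.82, 12.82 and 13.09 in NCE and 11.99, 11.59 and 11.82 in CYGB+, and fell by 1.11 (SE 0.17, adjusted p = 0.0087). CCNE1, cyclin E1, gave 11.79, 12.02 and 12.09 against 11.01, 11.30 and 11.34, and fell by 0.75 (SE 0.17, adjusted p = 0.030). PCNA, the sliding clamp of the DNA polymerases, gave 13.50, 13.86 and 13.91 against 13.03, 12.93 and 13.09, and fell by 0.74 (SE 0.17, adjusted p = 0.031). GINS4, another GINS subunit, gave 11.75, 11.60 and 11.99 against 11.26, 11.04 and 11.17, and fell by 0.62 (SE 0.16, adjusted p = 0.048). In these 4 genes every CYGB+ value lay below every NCE value. MCM4 also passed (-0.57, adjusted p = 0.045) and was named after its values were seen. The MCM4 call held under normexp correction (adjusted p = 0.021) and with a random block over 15 arrays (adjusted p = 0.0026). It also held without the 5 or 1 least correlated arrays (adjusted p = 0.0067 and 0.011). MCM4 lost the call without any replicate except CYGB+ replicate 1, in the deposited value table (adjusted p = 0.19) and with outliers kept (adjusted p = 0.058). Its call was also lost under 75th percentile scaling (-0.47, adjusted p = 0.13), with slide as a block (-0.42, adjusted p = 0.40) and with the replicate number as a block (adjusted p = 0.053). With that replicate block CCNE2 (-0.63, adjusted p = 0.043) and RRM1 (-0.91, adjusted p = 0.035), also named after their values were seen, passed. In that setting the list held 6 lower genes, beside 1715 lower of all 19791 probes tested.

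Of the 4, GINS1 alone kept its call with slide as a block (-1.08, adjusted p = 0.017) and without each replicate in turn, and within slide 2 it was -1.04 (adjusted p = 0.30). With slide as a block CCNE1 was -0.59 (adjusted p = 0.095), PCNA -0.57 (adjusted p = 0.17) and GINS4 -0.67 (adjusted p = 0.18), and within slide 2 they were -0.52, -0.47 and -0.65. PCNA and GINS4 did not pass under 75th percentile scaling (-0.59 and -0.52, adjusted p = 0.078 and 0.12). CCNE1 lost the call without any replicate except CYGB+ replicate 1, PCNA without NCE replicate 2 or 3 or CYGB+ replicate 2 or 3, and GINS4 without any 1 of the 6. Named by signal, TK1 (-0.03, adjusted p = 0.92, and 0.23 under 75th percentile scaling) and MCM7 (0.16, adjusted p = 0.53) did not pass.

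Genes of G2 and mitosis are listed beside them as a measure of the next phase. Of 17 listed, 16 had a probe (UBE2C had none), and 0 were higher and 3 lower (18.8%, beside 5.62% lower and 6.05% higher of all probes tested), with a median of -0.07. At an unadjusted p under 0.05 limma gave 3 and the methods' t-test 3, beside 29.2% and 25.4% of all probes tested. The mitotic kinase AURKA gave 12.85, 12.48 and 12.36 in NCE and 11.50, 11.83 and 11.91 in CYGB+, and fell by 0.81 (SE 0.19, adjusted p = 0.036). Its spindle activator TPX2 gave 12.98, 12.74 and 12.48 against 11.94, 12.04 and 11.87, and fell by 0.78 (SE 0.17, adjusted p = 0.030). CDK1 gave 12.21, 12.24 and 12.28 against 11.56, 11.49 and 11.82, and fell by 0.62 (SE 0.15, adjusted p = 0.041). None of the 3 passed under 75th percentile scaling (adjusted p = 0.052, 0.069 and 0.087) or with slide as a block (-0.93, -0.87 and -0.54, adjusted p = 0.25, 0.11 and 0.16), and within slide 2 they were -1.06, -0.98 and -0.53. AURKA and CDK1 lost the call without any 1 of the 6 replicates, and TPX2 without any except CYGB+ replicate 1. BIRC5 (0.07, adjusted p = 0.80) and CCNB2 (0.01, adjusted p = 0.97) did not pass, and both turned negative with slide as a block (-0.12 and -0.22).

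**Figure D5:**
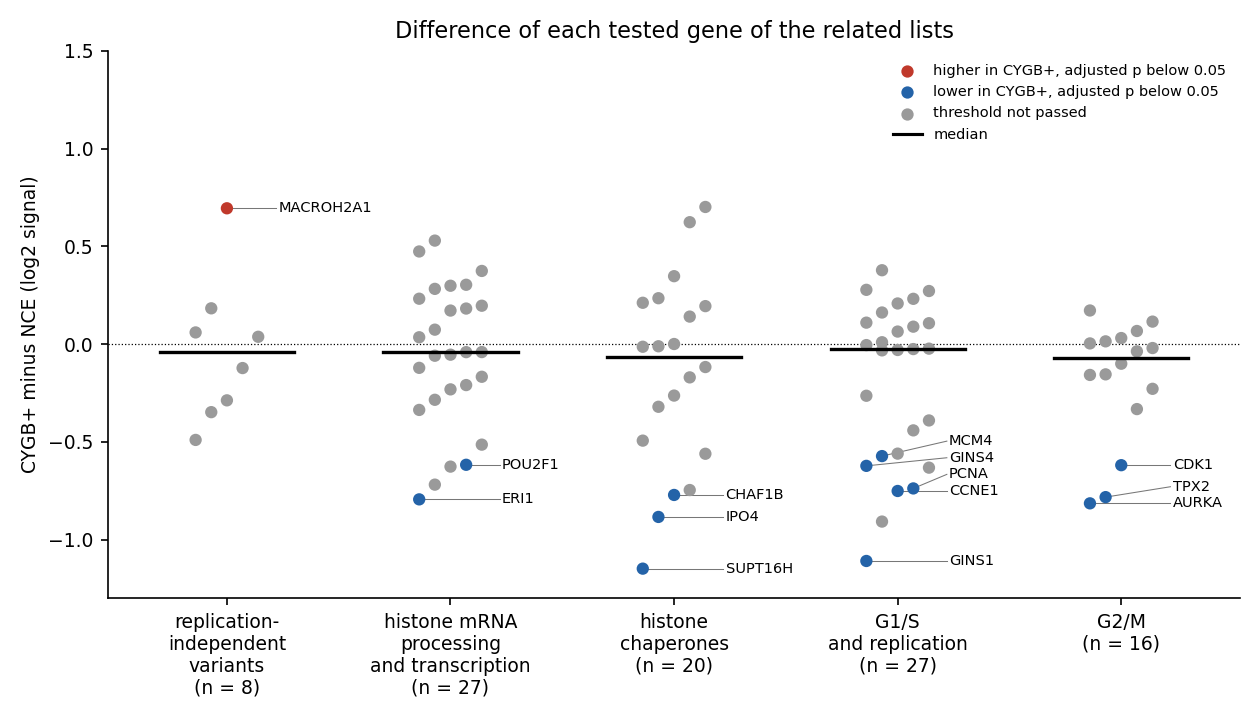
Each point is the difference (CYGB+ minus NCE, log2 signal, vertical axis) of 1 tested gene of the 5 related lists, with bars at the medians and names for the genes past the threshold. In all, 1 gene was higher and 13 lower; under 75th percentile scaling 6 of the list genes were lower and the medians of the 4 lists other than G2 and mitosis lay above 0, from 0.03 to 0.11, and with slide as a block 1 was lower.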

How the data were processed

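Green-channel signal was measured on 15 Agilent SurePrint G3 arrays, 9 NCE and 6 CYGB+, each with 58717 non-control spots for 42405 probes. Per the file headers the scanner files hold the processed green intensity made by Agilent Feature Extraction 10.7.3.1, which subtracts background, detrends and dye-normalises against the red channel of the same array. The deposited value table holds the natural log of that signal, centred per probe on the median of the CYGB+ arrays. This scale was found from its values. The deposited values cover 15031 probes and 57 of the member genes, and were used only as an alternative. Per the methods the authors quantile normalised 1-colour data and used t-tests.

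Here the log2 signal was quantile normalised with outlier-flagged spots left out, spots were averaged per probe and arrays per biological replicate, and limma 3.58.1 in R 4.3.3 with statmod 1.5.0 compared 3 replicates with 3. Tests were adjusted by Benjamini-Hochberg at 0.05 over 19791 probes well above background on every array of at least 1 group. Tables and figures used Python 3.11.15, pandas 2.3.3 and matplotlib 3.10.9. Of 27310 probes with a RefSeq accession 25422 were named to 1 gene, 19483 genes in all, and the probe of highest signal stood for a gene. Whole lists of related and marker genes were drawn from general knowledge. A few genes are not reported here. Members and lists were chosen with earlier results of these data known.

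Named genes are, per class, those past the threshold up to 6 and the 2 of highest signal that did not pass; per related list, up to 4 past the threshold by size of difference and 2 by signal; the linker variants; and SLBP and NPAT. Alternatives were 75th percentile scaling, normexp correction with offset 50 (on median spot signal, as the files hold no mean signal), other filters, replicate and slide blocks, arrays of slide 2 alone, the methods' t-test, the deposited table, each replicate left out, outliers kept and the mean of a gene's probes. Keeping outlier-flagged spots and leaving out the 1 or 5 arrays of lowest correlation were added after seeing the data. Replicate numbers come from the sample labels. Deviations of same-numbered replicates correlated at 0.24, 0.26 and 0.33, and of other pairs from -0.52 to 0.27. A shifted order, NCE replicates 1, 2 and 3 with CYGB+ replicates 2, 3 and 1, gave 0.20, 0.27 and 0.16. These values do not establish the pairing, and that numbers pair the groups was assumed. The main fit and the word overlap leave this pairing out, and the replicate block uses it. Among others, H1-1, H1-3 and H2AC7 overlapped but kept their direction in every pair. With the replicate block their adjusted p was 0.067, 0.11 and 0.17 (limma).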

Additional observations from a re-analysis of the deposited data

Results flagged for a closer look

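A gap rule was applied to 46 groups of array values and 3 passed it, where chance alone passes about 1 in 20. The first repeat of CYGB+ replicate 1 had a mean correlation of 0.905 with the other arrays, and the nearest other CYGB+ array 0.960. The second repeat of NCE replicate 3 had a median log2 signal over all probes tested of 8.85, the nearest other NCE array 8.91. H3-4 measured 15.34 on the first repeat of NCE replicate 3, the nearest other NCE array 15.22. The red channel was also listed because it was not analysed: 32656 to 36038 of its spots per array were well above background, and its RNA is not known here. The cause of each was not tested.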

How the results depend on the processing

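With 3 replicates per group, 1 clone and slide nearly the same as group, the tests cannot separate cytoglobin from clone or slide, and values are hybridisation signal over background, not RNA copies. Signal near background and near-identical gene copies limit what a fold means. Where settings differ the cause was not tested. Within slide 2 the 1 NCE array was assumed to vary like the other group. Of the 15 named genes past the threshold, 300 comparisons with alternatives kept the call in 157, lost it in 143 and turned the sign in 0. For 26 named genes not past it, 516 comparisons gave 448 unchanged, 3 newly past the threshold and 65 of turned sign.

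Over all probes the 1198 higher became 635 without a filter, 2369 with a random block over 15 arrays, 326 with slide as a block, 35 within slide 2, 427 by the methods' t-test, 764 in the deposited table, 2447 and 2042 without the 5 or 1 arrays of lowest correlation, and 345 to 1068 with each replicate left out. The 1113 lower became 597, 2356, 442, 22, 376, 680, 2305 and 2018 in the same order, and 285 to 1034. With the replicate number as a block (pairing), 1712 were higher and 1715 lower, histone genes were 2 higher and 2 lower, and H1-5 and H1-10 passed; no other histone call changed.

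The 1 higher histone gene became 0 without a filter, with slide as a block, within slide 2 and by t-test, 2 without the 5 arrays (H1-7 also passed, at 0.66), and 0 to 1 with each replicate left out. The 1 lower became 0 under normexp, without a filter, with a random block, with slide as a block, within slide 2, by t-test, in the deposited table and without the 5 or 1 arrays, and 0 to 1 with each replicate left out. The 1 higher gene of the related lists became 0 without a filter, within slide 2 and by t-test, 2 under 75th percentile scaling, under normexp, with the filter on all 15 arrays, with the replicate block, with slide as a block and in the deposited table, 4 with a random block, 5 and 4 without the 5 or 1 arrays, and 0 to 2 with each replicate left out. The 13 lower became 6 under 75th percentile scaling, 2 without a filter, 14 under normexp, 16 with the replicate block, 23 with a random block, 1 with slide as a block, 0 within slide 2, 2 by t-test, 5 in the deposited table, 9 with outliers kept, 21 and 19 without the 5 or 1 arrays, and 1 to 9 with each replicate left out. The H2A median became -0.28 within slide 2, and the H3 median 0.053 and 0.039 without the 5 or 1 arrays.

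Signs of named genes turned as follows. Under 75th percentile scaling CYGB was 0.081, SSRP1 0.15 and TK1 0.23; in the deposited table CYGB 0.047 and TK1 0.10; under normexp CCNB2 -0.0071. With slide as a block H1-2 was -0.15, H2AC14 -0.28, H2AC15 -0.41, H2BC13 -0.037, H3C13 -0.26, H4C3 -0.26, H4C13 -0.24, H3-3A 0.10, TK1 0.025, BIRC5 -0.12 and CCNB2 -0.22. Within slide 2 H1-2 was -0.35, H2AC14 -0.55, H2AC15 -0.69, H2BC13 -0.16, H2BC9 -0.11, H3C13 -0.44, H4C3 -0.43, H4C13 -0.45, H1-10 -0.13, H3-3A 0.12, TK1 0.082, BIRC5 -0.17 and CCNB2 -0.28. The mean of probes gave H4C13 -0.15 and H3-3A 0.0024, and outliers kept gave SSRP1 0.058 and TK1 0.064. Without the 5 arrays SSRP1 was 0.14, CCNB2 -0.062 and SLBP -0.018, and without the 1 array 0.18, -0.094 and -0.032.

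With each replicate left out in turn, values ran from -0.15 to 0.15 for CCNB2, -0.30 to 0.24 for CYGB, -0.015 to 0.42 for H1-2, -0.47 to 0.022 for H1-4, -0.15 to 0.48 for H2AC15, -0.088 to 0.22 for H3-3B, -0.080 to 0.36 for H3C13, -0.050 to 0.46 for H4C13, -0.060 to 0.39 for H4C3, -0.31 to 0.0052 for NASP, -0.012 to 0.063 for SLBP, -0.11 to 0.15 for SSRP1 and -0.14 to 0.085 for TK1.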
